A study of Homo sapiens with 4 samples.

Results

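The cyclophilin genes PPIF, PPIA, PPIB, PPIC, PPID, PPIE, PPIG, PPIH, PPIL1 and PPIL2 were followed in SK-N-SH cells with and without extra AP1AR-DT, a long non-coding RNA. These 10 genes were found by symbol among the 24014 genes of the count table. PPIF was picked because its change in this same comparison was already known, so its values are a description and carry no test. The other 9 members, its paralogs, were taken by family.

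SK-N-SH is an established human neuroblastoma cell line in which adrenergic cells, resembling neuroblasts, grow beside mesenchymal cells, which adhere to the dish. Control cells (2 libraries) were wild type and received a lentivirus vector without an insert, and AP1AR-DT_OE cells (2 libraries) received a lentivirus with AP1AR-DT, which the labels call AC109347.1. The title of AP1AR-DT_OE 2 names AC109347.1 while its genotype and treatment labels name AC109347.2, and the title was followed. The comparison asks which RNAs differ once AP1AR-DT is overexpressed. Nothing in the labels says that the libraries of a group came from separate cultures or transductions, so the p-values measure only the spread between these samples, which may be technical. The libraries held between 21988065 and 26184599 counts. AP1AR-DT itself (ENSG00000260526, listed as RP11-73K9.2) had 3 and 18 counts in control cells against 680 and 1065 in AP1AR-DT_OE cells. Adrenergic and mesenchymal markers were both present: none of the 9 adrenergic and 10 mesenchymal markers analysed was at 0 in every library.

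Cyclophilins are a family of peptidyl-prolyl cis-trans isomerases, enzymes that speed the turning of the peptide bond before a proline. The family includes proteins that cyclosporin binds. PPIF encodes the mitochondrial matrix member, cyclophilin D, known as a regulator of the permeability transition, the opening of the inner mitochondrial membrane under calcium load and oxidative stress. PPIA is the abundant cytosolic member whose complex with cyclosporin inhibits calcineurin, PPIB and PPIC work in the endoplasmic reticulum, PPID is a co-chaperone of HSP90, and PPIE, PPIG, PPIH, PPIL1 and PPIL2 are nuclear proteins, most of them linked to the spliceosome.

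The family arose by duplication, and PPIA has left many processed copies in the genome, so the sequences bear on which gene a read can be assigned to. A coding stretch of PPIA is shown with the same stretch of its pseudogene PPIAP22, which took most of the counts in this group of sequences, and with the matching last 76 bases in PPIF. All lie on the plus strand of GRCh37, at chr7:44839301-44839473 for PPIA (exon 4 of the canonical GENCODE transcript), chr21:20230286-20230458 for PPIAP22 (its exon 1) and chr10:81112073-81112148 for PPIF (exon 5). Capitals mark the bases that differ from PPIA.
PPIA: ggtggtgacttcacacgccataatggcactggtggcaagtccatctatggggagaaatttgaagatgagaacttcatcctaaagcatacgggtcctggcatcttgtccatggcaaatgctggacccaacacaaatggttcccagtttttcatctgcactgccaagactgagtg
PPIAP22: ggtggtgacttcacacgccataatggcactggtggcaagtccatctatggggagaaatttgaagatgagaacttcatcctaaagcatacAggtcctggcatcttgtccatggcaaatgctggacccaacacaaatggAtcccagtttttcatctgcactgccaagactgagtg
PPIF: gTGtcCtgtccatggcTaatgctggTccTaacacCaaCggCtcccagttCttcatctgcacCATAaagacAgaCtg

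PPIAP22 differed from PPIA at 2 of 173 bases (98.8% identity), and PPIF at 16 of 76 (78.9%). A window of 150 bases, the read length of the study, was slid along each canonical transcript and looked for in every other annotated transcript on both strands. Only exact matches were counted. Windows that differ at a few bases, as much of PPIA does from PPIAP22 in the stretch shown, are left out. None of the 2047 windows of PPIF was found in another gene. For PPIA, 151 of 2088 windows (7.23%) were, all 151 of them in PPIAP22 and 13 also in PPIAP29. The other matches were with genes that overlap a member on the opposite strand: 220 of 744 windows of PPIB (29.6%) with SNX22, 551 of 1681 of PPID (32.8%) with ETFDH, and 223 of 3919 of PPIL2 (5.69%) with YPEL1. The remaining 5 members had no such window.

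PPIF (ENSG00000108179, chromosome 10, 79347469 to 79355334 in the GRCh38 coordinates of the table) was the one member with a large difference between the groups. Its deposited counts were 469 in control 1 and 498 in control 2, and 4989 and 4354 in AP1AR-DT_OE 1 and 2. After division by DESeq2 size factors, the normalized counts stood at 534 and 384 in control cells against 5472 and 4322 in AP1AR-DT_OE cells. Both AP1AR-DT_OE libraries lay far above both controls. The means were 459 ± 106 and 4897 ± 814 (SD, n = 2), a ratio of 10.7, and the fitted log2 fold change was 3.42 (SE 0.45). Taken within a library number, the normalized count was 10.2 times as high in AP1AR-DT_OE 1 as in control 1 and 11.2 times as high in AP1AR-DT_OE 2 as in control 2. In bulk RNA, more PPIF RNA per cell and more cells with PPIF RNA cannot be told apart.

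**Figure D1:**
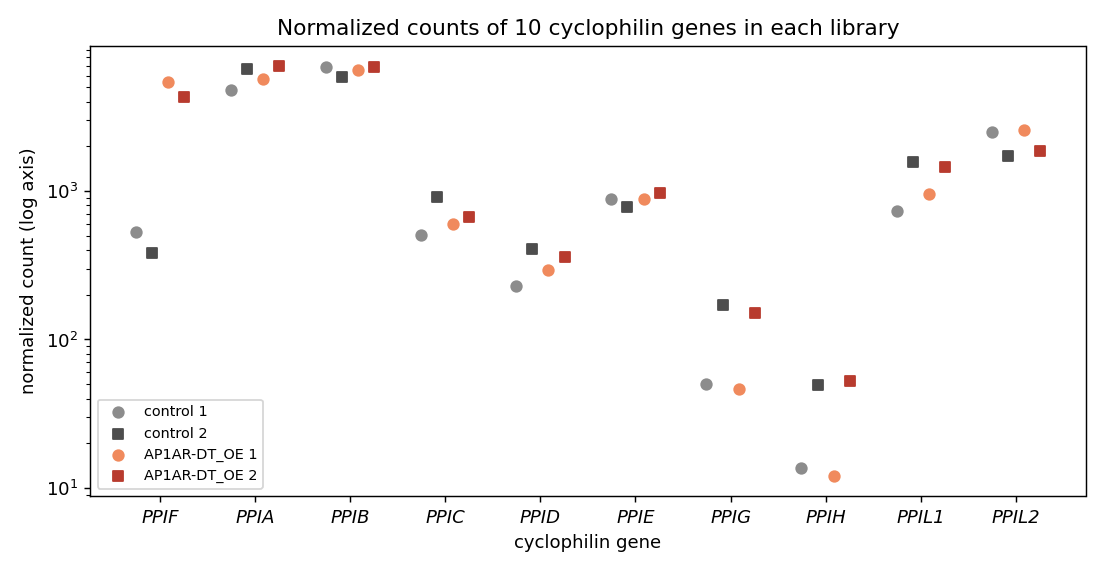
Normalized counts (log axis) of the 10 cyclophilin genes in the 4 libraries, 1 point for each library, circles for libraries numbered 1 and squares for those numbered 2. PPIF stood at 534 and 384 in the controls and at 5472 and 4322 in AP1AR-DT_OE cells, while the points of the paralogs lay close together or split by library number, as in PPIG and PPIH.

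PPIF was 1 of 33 genes of the whole table with a DESeq2 adjusted p under 0.05, a share of 0.137%, and 1 of the 20 of these that were higher in AP1AR-DT_OE cells (0.0833%); since PPIF was picked on this contrast, nothing is read from its place among them. The edgeR quasi-likelihood test called no gene (112 had an unadjusted p under 0.05), and there PPIF had a log2 fold change of 3.41 and an adjusted p of 0.39. Among the 13298 genes whose normalized counts averaged at least 50, 32 had a larger absolute log2 fold change than PPIF, 18 of them higher and 14 lower in AP1AR-DT_OE cells. In 23 of these 32 the groups overlapped, and the others were 6 with both AP1AR-DT_OE libraries above both controls and 3 with both below.

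None of the 9 paralogs passed the DESeq2 test across all genes. None had an unadjusted p under 0.05 in it either, the lowest being 0.731 in PPIE. Their log2 fold changes ran from -0.18 in PPIG to 0.15 in PPIE with a median of 0.05, against a median of -0.02 over all genes with a mean of at least 50. The summed normalized count of the 9 paralogs was 16632 in control 1, 18157 in control 2, 17589 in AP1AR-DT_OE 1 and 19266 in AP1AR-DT_OE 2, so the groups overlapped. These tests leave room for moderate changes, as the 95% intervals show. The interval of the fold ran from 0.609 to 2.01 for PPIA, from 0.585 to 1.85 for PPIB and from 0.606 to 2.04 for PPIE. It was widest for the low genes, from 0.299 to 2.61 for PPIG and from 0.232 to 4.49 for PPIH. Of the 8 paralogs with a mean of at least 50, PPIE alone had both AP1AR-DT_OE libraries above both controls, by a narrow gap, and none had both below, where 5.11% and 4.35% of all genes with such a mean did.

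**Figure D2:**
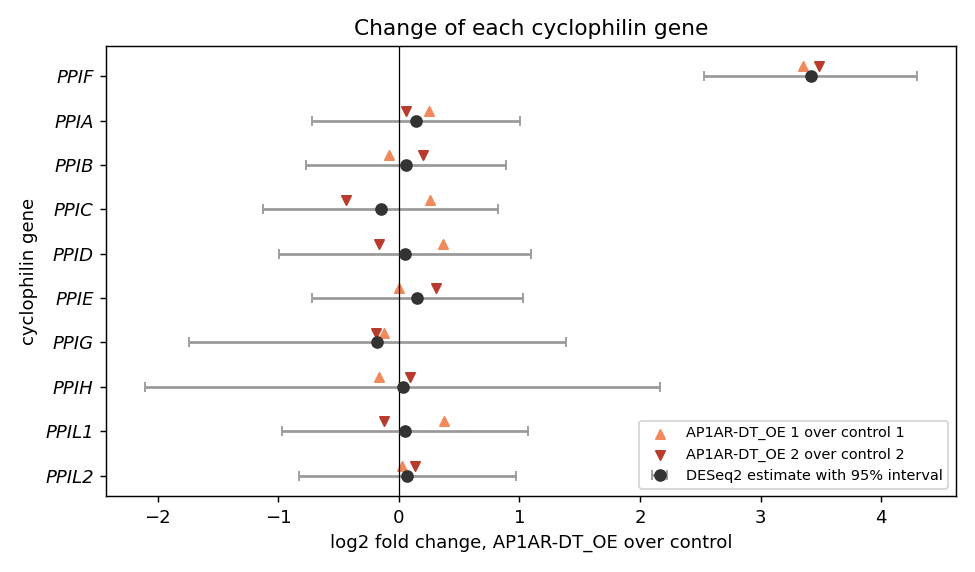
Log2 fold change of each cyclophilin gene, AP1AR-DT_OE over control, as fitted by DESeq2 with its 95% interval (circles and bars), and the log2 ratios within library numbers 1 and 2 (triangles, with 1 added to each normalized count). The interval of PPIF ran from 2.53 to 4.30, and those of the 9 paralogs all included 0.

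In the endoplasmic reticulum, PPIB (ENSG00000166794, chromosome 15) is part of the complex that hydroxylates collagen prolines. Its normalized counts were 6909.9 and 5916 in control cells against 6517 and 6817 in AP1AR-DT_OE cells (log2 fold change 0.06, SE 0.42). The AP1AR-DT_OE values lay between those of the controls. PPIC (ENSG00000168938, chromosome 5), also a secretory pathway member, had 505 and 909 in control cells against 603 and 671 in AP1AR-DT_OE cells (-0.15, SE 0.50), again inside the range of the controls.

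PPIA (ENSG00000196262, chromosome 7) had normalized counts of 4799 and 6636 in control cells against 5724 and 6924 in AP1AR-DT_OE cells, with a log2 fold change of 0.15 (SE 0.44). The groups overlapped. The row of PPIA held the smaller part of the counts given to PPIA-like sequence. PPIAP22 had 15070 and 32279 counts in control cells against 18530 and 28235 in AP1AR-DT_OE cells, where PPIA itself had 4214, 8603, 5218 and 6976. In each library PPIAP22 therefore stood at 3.55 to 4.05 times PPIA, and PPIA made up 19.0 to 21.2% of the sum of PPIA and its 13 pseudogene rows. Only PPIAP22, PPIAP29 and PPIAP31 among these 13 had a mean of at least 50, and the other 10 had at most 9 counts in a library. How reads that fit both were divided is not given in the sources used here, so the level of PPIA is uncertain. With PPIA and its pseudogenes summed, a step added after the data were seen, the log2 fold change was 0.19 (SE 0.45).

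**Figure D3:**
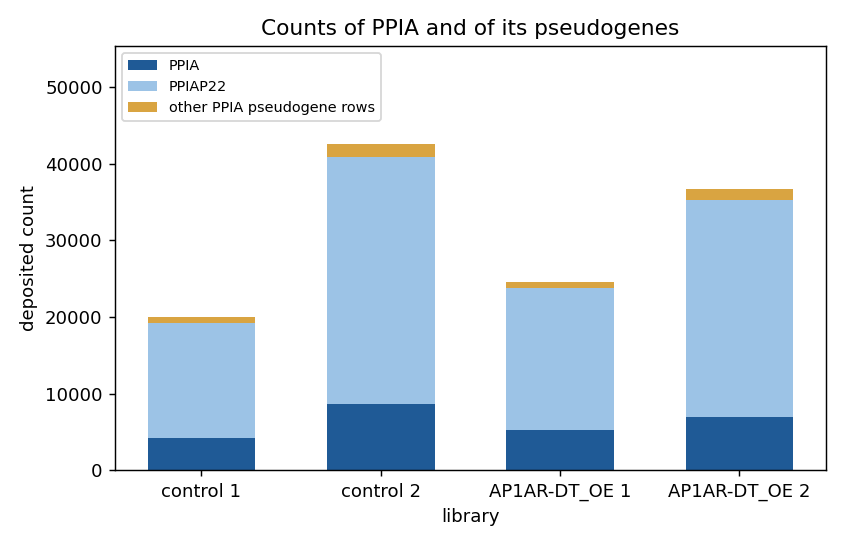
Deposited counts of PPIA, of PPIAP22 and of the other PPIA pseudogene rows, stacked for each library from 0. PPIA made up between 19.0% and 21.2% of each bar.

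PPID (ENSG00000171497, chromosome 4), which joins HSP90 complexes with steroid receptors, had normalized counts of 228 and 404 in control cells against 294 and 361 in AP1AR-DT_OE cells (log2 fold change 0.05, SE 0.53). Both AP1AR-DT_OE values lay between the controls. A large part of its transcript is also that of ETFDH on the other strand, and ETFDH had 106 and 249 counts in control cells against 92 and 140 in AP1AR-DT_OE cells (-0.38, SE 0.61).

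Of the nuclear members, PPIE (ENSG00000084072, chromosome 1), which carries an RNA-binding domain and is found in active spliceosomes, had 880.4 and 786 in control cells against 882 and 972 in AP1AR-DT_OE cells (log2 fold change 0.15, SE 0.45). The lower AP1AR-DT_OE value lay just above the higher control, and this gap was far smaller than the spread within either group. PPIL1 (ENSG00000137168, chromosome 6), a spliceosome protein that binds SNW1, had 732 and 1572 in control cells against 949.9 and 1444 in AP1AR-DT_OE cells (0.05, SE 0.52). PPIL2 (ENSG00000100023, chromosome 22), a cyclophilin with a U-box, had 2514 and 1712 in control cells against 2561 and 1875 in AP1AR-DT_OE cells (0.07, SE 0.46). In PPIL1 and PPIL2 the 2 libraries with the same number were nearer to each other than the 2 of a group.

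PPIG (ENSG00000138398, chromosome 2), which has a serine- and arginine-rich tail, had normalized counts of 50.1 and 171 in control cells against 46.1 and 149.9 in AP1AR-DT_OE cells (log2 fold change -0.18, SE 0.80). PPIH (ENSG00000171960, chromosome 1), which binds PRPF4 in the tri-snRNP, was the lowest member, with 13.7 and 49.4 in control cells against 12.1 and 52.6 in AP1AR-DT_OE cells (0.03, SE 1.09). Both genes split by library number rather than by group. The deposited counts of PPIH in the libraries numbered 1 were 12 and 11, at or under the 12 counts (3 read pairs at about 4 counts each) that an observation of 0 allows. The row of its pseudogene PPIHP1, looked at after its values were seen, held more counts than PPIH in every library. It had 71 and 164 counts in control cells against 151 and 168 in AP1AR-DT_OE cells. After normalization these were 80.9 and 127 against 166 and 167 (log2 fold change 0.68, SE 0.60).

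Of the 10 members, 6 had higher normalized counts in the library numbered 2 than in that numbered 1 in both groups, while PPIF and PPIL2 had lower ones in both. The size of this difference ran with GC content. Between control 2 and control 1 the log2 ratio (with 1 added to each normalized count) was 1.75 for PPIG, whose canonical transcript has 34.8% GC, -0.47 for PPIF with 53.2% and -0.55 for PPIL2 with 56.2%. In AP1AR-DT_OE cells the same ratios were 1.68, -0.34 and -0.45. Over the 10 members, Spearman's rho between GC content and this log2 ratio was -0.76 in the controls and -0.75 in AP1AR-DT_OE cells, and over 13284 genes it was -0.78 and -0.66. These genes come from the same 4 libraries and are not independent, so the values describe the libraries. PPIH, with 47.3% GC, had ratios of 1.78 and 2.04. These rest on 12 and 11 counts in the libraries numbered 1, and PPIH, with a mean under 50, is not among the 13284 genes. The part of library number in the paralogs' values was not tested beyond the alternatives in the closing section.

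**Figure D4:**
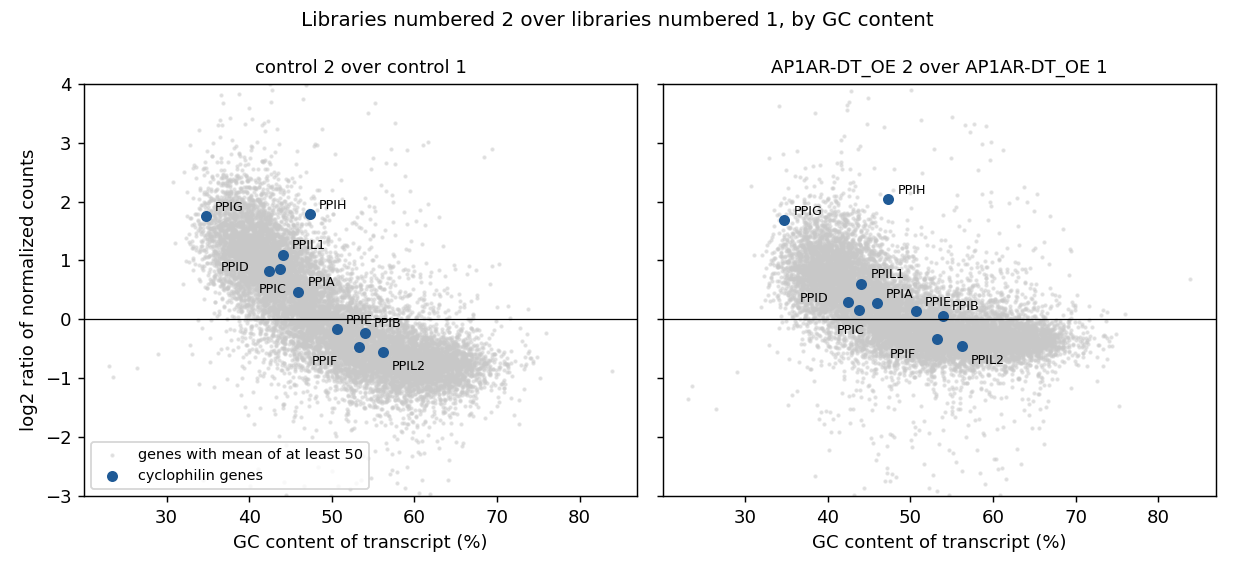
Log2 ratio of normalized counts between the libraries numbered 2 and 1 of the controls (left) and of AP1AR-DT_OE cells (right) against GC content of the transcript (%), for 13284 genes with a mean of at least 50 (grey) and the 10 cyclophilin genes (blue). The axis runs from -3 to 4 and leaves out 90 genes on the left and 86 on the right; PPIG lies at the upper left of both clouds, and PPIF and PPIL2 lie below 0 in both.

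To compare levels between genes, normalized counts were divided by the length of the canonical transcript in kilobases. In the controls the PPIB row was highest at 7181 ± 787 per kilobase (SD, n = 2), followed by the PPIA row at 2556 ± 581. The PPIA row held only 21.0% and 20.2% of the counts of PPIA and its pseudogene rows in controls 1 and 2. The order of PPIA and PPIB is therefore uncertain. Next came PPIL1 at 760 ± 392, PPIL2 at 519 ± 139 and PPIC at 518 ± 210, whose ranges overlapped. PPIF at 209 ± 48.3, PPIE at 192 ± 15.4 and PPID at 173 ± 68.2 also overlapped each other. PPIH at 41.8 ± 33.5 and PPIG at 17.4 ± 13.5 were lowest and overlapped too. PPIF ranked 6 of the 10 in control 1 and 8 in control 2.

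In AP1AR-DT_OE cells PPIF stood at 2230 ± 371 per kilobase and ranked 3 of 10 in both libraries, behind PPIB at 7466 ± 238 and PPIA at 2827 ± 379. Its level per kilobase was 0.97 times that of the PPIA row in AP1AR-DT_OE 1 and 0.64 times in AP1AR-DT_OE 2, against 0.11 and 0.059 times in controls 1 and 2. Counts placed on PPIAP22 are not in these PPIA levels. With them the ratios of PPIF to PPIA, and the share of PPIF given below, would be lower. The 3 paralogs nearest to PPIF in GC content are PPIB (54.0%), PPIE (50.6%) and PPIL2 (56.2%). The level of PPIF was 0.031 and 0.026 times that of PPIB in control cells against 0.34 and 0.26 times in AP1AR-DT_OE cells. Relative to PPIE it was 1.20 and 0.97 times in control cells against 12.3 and 8.79 times in AP1AR-DT_OE cells, and relative to PPIL2 0.39 and 0.42 times against 3.96 and 4.27 times. As a share of the summed level per kilobase of the 10 members, PPIF made up 2.04% and 1.41% in control cells against 17.3% and 13.0% in AP1AR-DT_OE cells.

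No annotated gene overlaps PPIF on either strand, and no other row of the table overlaps it. Within 1 Mb of PPIF the table listed 23 other genes. None of them was called, where 0.137% of all genes were, and none had an unadjusted p under 0.05 by DESeq2. The 7 with a mean of at least 50 had log2 fold changes from -0.07 in ZMIZ1, the nearest gene upstream, to 0.19 in TMEM254, with a median of 0.03. ZCCHC24, the nearest downstream, had 2184 and 3246 counts in control cells against 2517 and 2345 in AP1AR-DT_OE cells (0.03, SE 0.43), so the groups overlapped.

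**Figure D5:**
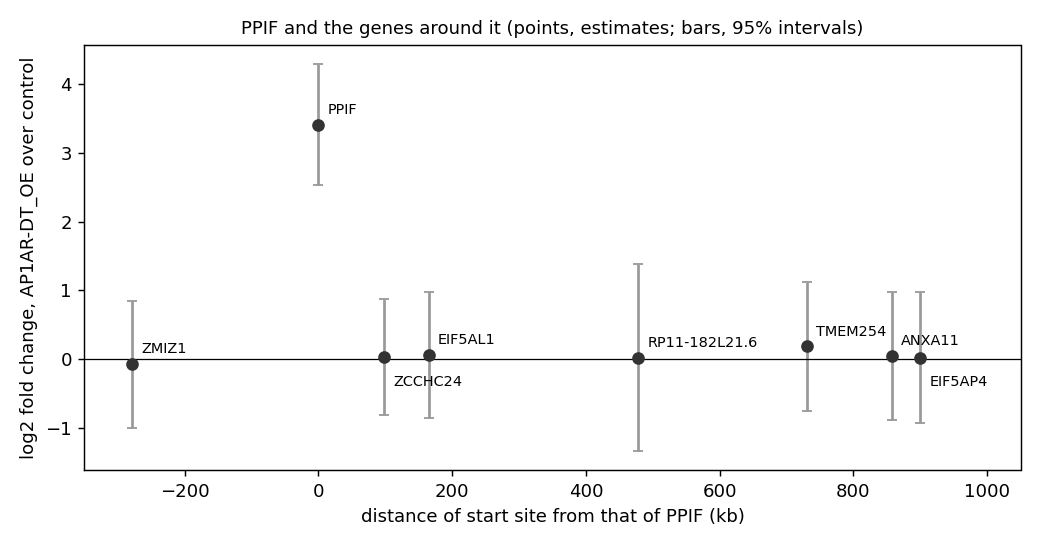
Log2 fold change (AP1AR-DT_OE over control, DESeq2 estimate with 95% interval) of PPIF and of the 7 genes within 1 Mb with normalized counts averaging at least 50, against the distance of their start site from that of PPIF (kb). PPIF stood at 3.42 and the others between -0.07 and 0.19.

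Several paralogs overlap other genes, and strand use in the counting is not stated, so reads of such pairs may not be told apart. PPIB overlaps SNX22, PPIC overlaps SNX24 and PPIC-AS1, PPIE overlaps BMP8B, PPIL1 overlaps C6orf89 and PPIL2 overlaps YPEL1, each on the opposite strand. None of these partners was called, where 0.137% of all genes were. Their log2 fold changes ran from -0.50 in PPIC-AS1 (listed as RP11-359P5.1, with 5 to 13 counts) to 0.73 in YPEL1 (SE 0.62). On its own strand, PPIL2 has exon sequence in common with the row of ENSG00000207751 (listed as MIR130B), which had 1 count in control 2 and 0 elsewhere. PPIE has exon sequence in common with ENSG00000289711 on its own strand and PPIH with ENSG00000285728 on the opposite one, and neither was analysed here.

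The genes nearest to PPIF in pattern over the 4 libraries, among the 13298 with a mean of at least 50, were KMO, FBXL8, DDA1, MRPS18A and ENSG00000144785 (listed as RP11-977G19.10). Likeness was the Euclidean distance between log2 normalized counts (with 1 added) after each gene was centred on its own mean, and these 5 lay at 0.70, 0.72, 0.76, 0.92 and 0.94 from PPIF. DDA1, a component of ubiquitin ligase complexes, was the most abundant of them, with normalized counts of 945 and 390.3 in control cells against 5277 and 3964 in AP1AR-DT_OE cells. KMO, the kynurenine monooxygenase, had 23.9 and 21.6 in control cells against 167 and 163 in AP1AR-DT_OE cells. MRPS18A, a protein of the mitochondrial ribosome, had 119.6 and 98.7 in control cells against 722 and 539 in AP1AR-DT_OE cells. FBXL8, an F-box protein, had 86.6 and 44.7 in control cells against 453 and 433 in AP1AR-DT_OE cells. Each was higher in both AP1AR-DT_OE libraries than in both controls, as the choice by likeness to PPIF fixes. The 8 paralogs with a mean of at least 50 lay farther off, from 3.29 in PPIE to 4.16 in PPIG.

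The proteins around the permeability transition, among them the voltage-dependent anion channels, adenine nucleotide carriers, ATP synthase subunits and the calcium uniporter, included no called gene. Of 30 such genes analysed, 0 were called by DESeq2, and 0 had an unadjusted p under 0.05. Over all 24014 genes 33 were called (0.137%) and 196 had an unadjusted p under 0.05. A count of 0 among 30 is near these shares and is no result about these genes. Their median log2 fold change was 0.03, against -0.03 over all genes tested. Among the 27 with a mean of at least 50, the lowest value was that of MCU, the pore of the uniporter, at -0.33 (SE 0.62), and the highest that of VDAC3 at 1.25 (SE 1.74). VDAC3 had 208 and 77 counts in control cells against 33 and 671 in AP1AR-DT_OE cells, so 1 library set its mean. Both AP1AR-DT_OE libraries lay below both controls in GSK3B, HK2 and SMDT1, which are named after their values were seen.

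Other partners and relatives of the family were likewise without a called gene. With 0.137% of all genes called, 0 is near that share in lists of these sizes. Of the other genes with a cyclophilin domain, 7 were analysed and 0 were called, and those with a mean of at least 50 ran from NKTR at -0.25 (SE 0.57) to PPIL4 at 0.44 (SE 0.88). Of 16 FKBP and parvulin isomerases, the other prolyl isomerase families, 0 were called. Of the 14 with a mean of at least 50, FKBP5, a co-chaperone of HSP90 like PPID, was lowest at -0.34 (SE 0.49). Its normalized counts were 368 and 409 in control cells against 294 and 321 in AP1AR-DT_OE cells. The highest was FKBP2 at 0.13 (SE 0.45). Calcineurin, NFAT and related genes gave 0 called of 11, and the 9 with a mean of at least 50 ran from PPP3CA at -0.29 (SE 0.53) to PPP3CC at 0.16 (SE 0.55).

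In the endoplasmic reticulum, the folding partners of PPIB gave 0 called of 12, from HSP90B1 at -0.13 (SE 0.56) to PDIA6 at 0.33 (SE 0.54). HSP90 and its co-chaperones gave 0 of 10, with FKBP5 lowest and PTGES3 highest at 0.14 (SE 0.50). Spliceosome partners gave 0 of 20, from ISY1 at -0.73 (SE 3.43) to CWC15 at 0.23 (SE 0.92). ISY1 had 391 and 1159 counts in control cells against 0 and 812 in AP1AR-DT_OE cells, so its value rests on 1 library listed at 0. No gene in any of these lists other than PPIF had an unadjusted p under 0.05 by DESeq2. Over all 24014 genes 0.137% were called and 196 had such a p, so counts of 0 here are near these shares.

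The markers of the cell states of the culture gave 0 called of 9 adrenergic and 0 of 10 mesenchymal genes, against 0.137% of all genes. The summed normalized count of the adrenergic markers was 45323 and 34102 in control cells against 42456 and 39347 in AP1AR-DT_OE cells. That of the mesenchymal markers was 174202 and 131487 against 166847 and 141260, so both sums overlapped. These sums mostly follow the abundant markers. VIM alone had 93086 and 67917 in control cells against 92942 and 82579 in AP1AR-DT_OE cells, and HAND2 and TBX2 were the most abundant adrenergic markers. The 8 adrenergic markers with a mean of at least 50 ran from ISL1 at -0.07 (SE 0.56) to DBH at 0.23 (SE 0.48), and the 10 mesenchymal ones, all with such a mean, from PRRX1 at -2.02 (SE 0.61) to VIM at 0.12 (SE 0.43). PRRX1 had 2432 and 14724 counts in control cells against 1131 and 2263 in AP1AR-DT_OE cells (DESeq2 adjusted p = 0.43), and was the 1 marker with an unadjusted p under 0.05. Whether cell state has a part in the values of PPIF was not tested.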

How the data were processed

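RNA-seq was performed on 4 libraries of SK-N-SH cells (2 control, 2 AP1AR-DT_OE), grouped by title. According to the paper's methods, the authors aligned reads to hg19 with HISAT2 and derived the deposited counts, whole numbers per gene with no normalization, with StringTie and its Python script; the submitters' processing notes name TopHat2 2.0.4, HTSeq and edgeR 2.6.12 instead. The annotation is not given in the sources used here. Low counts piled up at 4 and 8 (3287 entries at 4, 2136 at 3), so a read pair was worth about 4 counts. The floor of 12 counts covers counting error only. The 95% intervals come from the DESeq2 fit, which also takes in the spread between these libraries. The authors' DESeq2 and edgeR results in the table were not used.

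Counts of all 24014 genes were compared with DESeq2 1.42.0 in R 4.3.3 (median-of-ratios size factors, Wald test, two-sided, Benjamini-Hochberg, default independent filtering, adjusted p under 0.05); edgeR 4.0.16 and the other alternatives are in the closing section. The DESeq2 procedure was run on simulated counts drawn independently for each library. These had neither the differences by library number nor the about 4 counts per read pair, so they do not check the p-values given here. Length, GC content, overlaps and sequences came from GENCODE v44 on GRCh37, which matched 23954 genes by ID. Members and lists were chosen with earlier results of these data known. Named genes were the 10 members, called genes and the extremes of each list (mean normalized count of at least 50), the 5 genes nearest to PPIF in pattern, and genes with exons in common with a member.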

Additional observations from a re-analysis of the deposited data

How the results depend on the processing

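The 33 calls became 0 with the edgeR quasi-likelihood test, 57 with a correction for GC content, 60 with that correction and the replicate block, 15 with counts divided by 4 and 14 with genes that have exons in common summed. Leaving out 1 library gave from 45 to 90 calls: 90 without control 1, 75 without control 2, 45 without AP1AR-DT_OE 1 and 50 without AP1AR-DT_OE 2. Fewer libraries and genes enter these fits, in which a lone library is assumed to vary like the other group; the cause of the other shifts was not tested. The other alternatives gave from 26 to 44 calls. The sum of PPIA and its pseudogenes, added after seeing the data, gave 33. PPIF was picked on this contrast, so its values under the alternatives are a description and no sign of stability. Its log2 fold change was 3.41 with the edgeR test without the block, where it was not called, and ran from 3.21 to 3.67 without 1 library.

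With the replicate number as a block, 37 genes were called by DESeq2 and 44 by edgeR, and PPIF stood at 3.42 in both; the labels do not say that a number marks a batch. Deviations from the group means of same-numbered libraries correlated at 0.49 over 13298 genes. PPIH turned to -0.035 under the replicate block, to -0.032 in edgeR with the replicate block and to -0.030 with block and GC correction. No paralog was called in any of 135 values under the alternatives. When 1 library was left out, values changed sign in 8 paralogs, with ranges of -0.072 to 0.41 for PPIA, -0.041 to 0.17 for PPIB, -0.52 to 0.35 for PPIC, -0.31 to 0.54 for PPID, -1.29 to 0.98 for PPIG, -1.41 to 1.26 for PPIH, -0.40 to 0.72 for PPIL1 and -0.18 to 0.37 for PPIL2. Depth limits PPIH most, with 11 to 64 counts.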
